A study of Arabidopsis thaliana with 222 samples.

Results

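The genes described here are 16 of the 32311 in a count matrix of *Arabidopsis thaliana* roots, selected on their measured levels with and without the bacterium RMF27 in the lateral root mutant *gnom184* and the wild type Col 0. Expression was taken as CPM, a gene's count per 1000000 counts of its library. A gene was selected when its mean in *gnom184* with RMF27 was at least 5 CPM and when its ratio of RMF27 to no bacteria (NB), with 0.5 CPM added to each group mean, was at least 4 times as high in *gnom184* as in Col 0. The minimum was met by 16087 genes, and 5 of them had the opposite relation, a ratio at least 4 times as high in Col 0 as in *gnom184*. The 24 libraries of these 4 groups chose the genes, so the values in them are a description without a test, and every test below uses other libraries.

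The study sequenced root RNA of 222 libraries in 37 groups of 6, each with its own genotype and treatment. After 7 days, seedlings went onto agar that held 1 strain or NB, where they stayed for 7 days until root harvest. Col 0 was grown with NB and 16 strains. These were L76, L180, L196, L264, L339, L343, L344, L359, L384, L412, L469, RCL115, RMF8, RMF27, RMF217 and RMF331. *gnom184* was grown with NB, RMF27, L196, L339 and L469. *lbd16-1* had NB and 8 strains, L76, L180, L343, L359, L384, L412, RMF8 and RMF217. *nph4-1* was grown with NB, L344, L359 and RCL115, and *arf7 arf19* with NB and L344. The study made 3 biological replicates in each of 2 repeats, which the labels do not name. *gnom184* is an allele of GNOM, which encodes an exchange factor for small GTPases in the vesicle traffic of auxin carriers, and it is impaired in lateral root formation. *nph4-1* is an allele of ARF7, ARF7 and ARF19 are auxin response factors, and LBD16 is a transcription factor that they switch on in cells that found a lateral root. RMF27 is a *Bacillaceae* strain. GNOM RNA had a median of 77.5 CPM in *gnom184* NB and 83.8 CPM in Col 0 NB, which does not check the labels, since the allele is not stated to change the amount of RNA.

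Lateral roots start inside the root, and the growing primordium has to pass the endodermis, cortex and epidermis. Young primordia and root tips carry a thin surface layer of cutin, a lipid polymer. Lipid transfer proteins (LTPs) are small secreted proteins that bind lipids, GDSL-type lipases are a large family of mostly secreted esterases, some of which act on cutin or suberin, and ABCG transporters carry lipids and hormones across the plasma membrane. Of the 16 genes, 3 encode LTPs (LTP3, LTP5 and AT5G01870, which the annotation also calls LTP10), 2 encode GDSL-type lipases (AT3G16370 and AT1G29660), ABCG31 encodes a transporter known to export abscisic acid in seeds, and AT2G19970 encodes a protein of the CAP family, to which the defence protein PR1 belongs. PHI-1 is a cell wall protein of the EXORDIUM family. LHB1B1 is a chlorophyll-binding protein of photosystem II, TGG1 is a myrosinase, which cleaves glucosinolates, AT2G10940 has a lipid transfer domain, and AT1G23130 belongs to the polyketide cyclase and lipid transport family. LpxC3 is named after an enzyme of bacterial lipid A synthesis, AT2G01020 is a ribosomal RNA gene, and AT1G06002 and AT3G03475 are non-coding RNAs that lie opposite to protein-coding genes.

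The 250 bases before the annotated start are shown for LTP3 and AT1G29660, which stand for the LTPs and the lipases, and for ABCG31, which was selected with any 1 of the 24 libraries left out. They were read from the RefSeq genome TAIR10.1 and run 5′ to 3′ in the direction of the gene. Capitals mark a match to a searched motif.
LTP3 promoter, chr5:23928704-23928953, plus strand: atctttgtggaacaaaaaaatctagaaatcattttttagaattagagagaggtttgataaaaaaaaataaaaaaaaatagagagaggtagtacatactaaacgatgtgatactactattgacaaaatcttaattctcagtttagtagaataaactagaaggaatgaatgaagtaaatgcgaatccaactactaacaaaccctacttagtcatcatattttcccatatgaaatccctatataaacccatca
AT1G29660 promoter, chr1:10371425-10371674, plus strand: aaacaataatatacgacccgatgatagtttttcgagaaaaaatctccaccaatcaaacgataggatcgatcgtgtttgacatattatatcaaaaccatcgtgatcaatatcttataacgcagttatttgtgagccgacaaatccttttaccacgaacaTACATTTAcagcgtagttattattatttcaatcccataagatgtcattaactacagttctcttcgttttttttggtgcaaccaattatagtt
ABCG31 promoter, chr2:12759723-12759972, plus strand: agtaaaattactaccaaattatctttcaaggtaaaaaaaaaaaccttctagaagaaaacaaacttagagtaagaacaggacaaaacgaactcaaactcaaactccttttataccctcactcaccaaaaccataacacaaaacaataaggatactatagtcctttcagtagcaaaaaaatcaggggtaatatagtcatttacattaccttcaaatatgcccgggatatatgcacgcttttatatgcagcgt
These windows and those of LTP5, AT5G01870, AT3G16370 and AT2G19970 were searched on both strands for 6 motifs. The L1 box of epidermal genes (TAAATGNA) was found in 1 of the 7, AT1G29660, 92 bases before the start and read on the strand opposite to the gene, and 9.91% of the 27388 windows of this length hold it. The auxin response element (TGTCTC, in 10.9% of all windows), the ethylene GCC box (GCCGCC, 1.87%), the abscisic acid response element (ACGTGNC, 8.58%), the MYB AC element (ACCNAAC, 14.5%) and the G box (CACGTG, 6.5%, which can overlap the abscisic acid element) had 0 matches in the 7 windows.

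The median library held 18434824 counts, the shallowest 10255732 and the deepest 29735838. Intervals are not given for single levels, since the spread over 6 libraries covers counting error too. The summed level of 6 leaf markers had a median of 311.9 CPM and exceeded 3 times this median in 7 libraries. Of these, *gnom184* RMF27 replicate 4 (2157 CPM), *gnom184* NB replicate 2 (1045 CPM), *gnom184* L469 replicate 6 (2186 CPM) and *arf7 arf19* L344 replicate 5 (3363 CPM) touch the results below. In *gnom184* L196, replicate 5 had the lowest LTP3, LTP5, AT5G01870 and AT2G19970 levels of its group. Each group holds 3 libraries numbered 1 to 111 and 3 numbered 112 to 222, and the labels do not say what these ranges are.

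ABCG31 was higher with RMF27 than with NB in both genotypes, and higher with RMF27 in *gnom184* than in Col 0, each without overlap between libraries. In Col 0 NB its lowest, median and highest levels were 0.136, 0.276 and 0.488 CPM, and in Col 0 RMF27 they were 3.34, 4.64 and 6.48 CPM. In *gnom184* NB they were 0, 0.129 and 0.286 CPM, and in *gnom184* RMF27 18.1, 20.8 and 32.7 CPM. The NB groups overlap. The ratio of RMF27 to NB was 6.84 in Col 0 and 38.1 in *gnom184*, a ratio of ratios of 5.57. The next highest of the 37 group means was 1.1 CPM, in *gnom184* L339. ABCG31 lies on chromosome 2 at 12759973 to 12766794 (TAIR10.1, plus strand, 20 exons).

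AT2G19970, the CAP family gene, had the highest level of the 16 with RMF27. It had 327 to 442 CPM (median 386) in Col 0 RMF27 and 361 to 724 CPM (median 512) in *gnom184* RMF27, and these groups overlap. Without bacteria the genotypes lay apart, with 20.2 to 56.5 CPM (median 26) in Col 0 and 5.32 to 15.4 CPM (median 7.69) in *gnom184*. The ratio to NB was 11.4 in Col 0 and 58.1 in *gnom184*. The *gnom184* level was 0.271 times that of Col 0 with NB and 1.39 times with RMF27, so most of the ratio of ratios of 5.1 lay in the NB groups. The gene lies on chromosome 2 at 8623699 to 8624624 (minus strand, 1 exon).

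The 3 LTPs and 2 lipases were low in *gnom184* without bacteria and near or above Col 0 with RMF27. AT5G01870 had 53.3 to 102 CPM (median 81) in Col 0 NB, 68.2 to 108 CPM (median 87.7) in Col 0 RMF27, 5.26 to 29 CPM (median 13.5) in *gnom184* NB and 55.7 to 94.2 CPM (median 80.6) in *gnom184* RMF27. LTP5 had 23.4 to 45.8 CPM (median 29.1) in Col 0 NB, 27.9 to 51 CPM (median 40) in Col 0 RMF27, 3.09 to 21.1 CPM (median 5.43) in *gnom184* NB and 38.1 to 50.5 CPM (median 46.1) in *gnom184* RMF27. In both genes the Col 0 groups overlap, and the *gnom184* NB libraries lie below all the others. In bulk roots, fewer cells of a type and less RNA per cell cannot be told apart.

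The lipase AT3G16370 had 19.4 to 36.8 CPM (median 29.2) in Col 0 NB, 29.4 to 38.2 CPM (median 32.7) in Col 0 RMF27, 1.95 to 17.8 CPM (median 5.88) in *gnom184* NB and 33.8 to 54.6 CPM (median 47.7) in *gnom184* RMF27. The lipase AT1G29660 had 6.2 to 8.26 CPM (median 7.58), 9.91 to 14.1 CPM (median 10.8), 0.343 to 3.97 CPM (median 0.995) and 8.97 to 16.6 CPM (median 9.61) in the same order. For both, *gnom184* NB again lay below the other groups, and for AT1G29660 the Col 0 groups were apart as well. LTP3 had 10 to 21.1 CPM (median 16.8) in Col 0 NB, 7.91 to 16.8 CPM (median 13.8) in Col 0 RMF27, 2.53 to 13 CPM (median 6.88) in *gnom184* NB and 19.6 to 69.9 CPM (median 32) in *gnom184* RMF27. It was the only one of the 5 in which every *gnom184* RMF27 library lay above every Col 0 RMF27 library. Over the 5 genes the *gnom184* to Col 0 ratio was 0.189 to 0.501 with NB and 0.862 to 2.64 with RMF27, and the ratio of RMF27 to NB was 0.813 to 1.5 in Col 0 and 4.28 to 6.28 in *gnom184*.

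**Figure D1:**
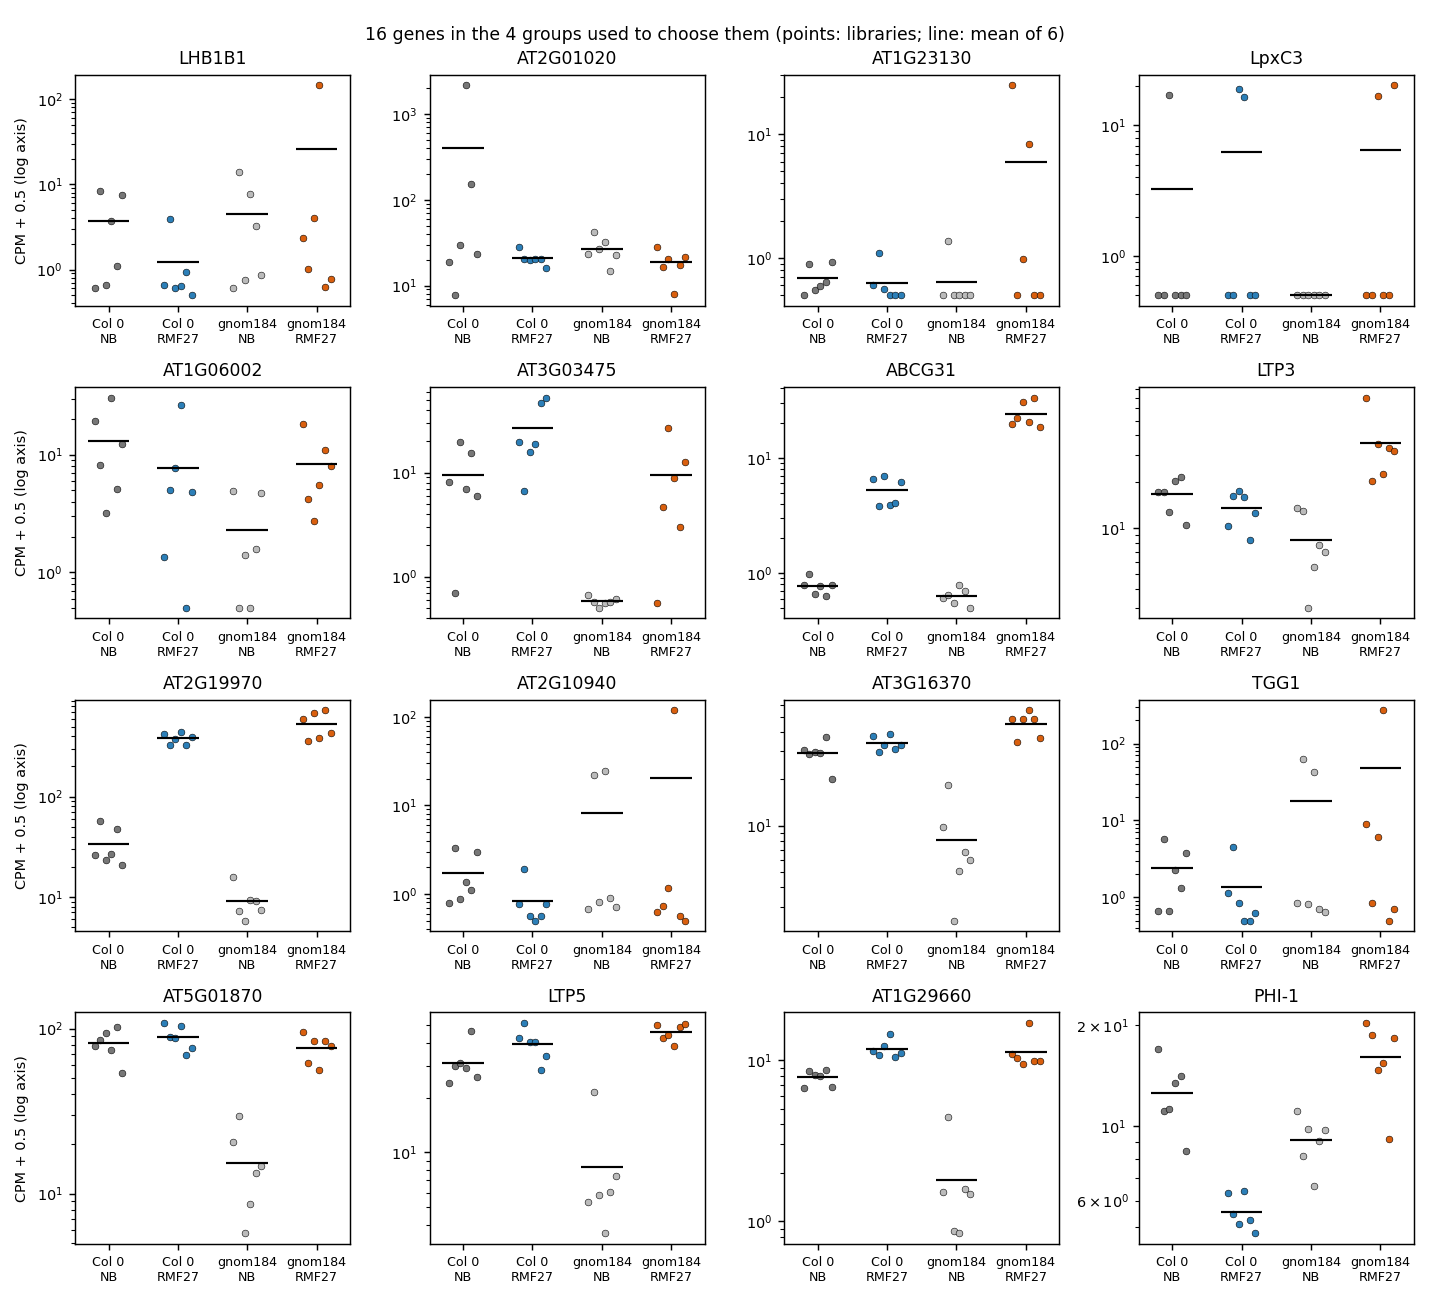
CPM plus 0.5 on a log axis for each of the 16 genes in the 4 groups of 6 libraries that chose them; points are libraries and lines are means. In ABCG31 the 6 *gnom184* RMF27 libraries sit above all others, while in LHB1B1, AT2G10940 and TGG1 the mean is set by 1 library.

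On TAIR10.1, LTP3 lies on chromosome 5 at 23928954 to 23929816 (plus strand, 2 exons), AT5G01870 on chromosome 5 at 337128 to 337914 (plus strand, 2 exons) and LTP5 on chromosome 3 at 19138338 to 19139423 (minus strand, 2 exons). AT3G16370 lies on chromosome 3 at 5556710 to 5558982 and AT1G29660 on chromosome 1 at 10371675 to 10374005 (both plus strand, 5 exons). The annotation lists 15 genes of the LTP family. Besides the 3 selected, LTP4 (ratio of ratios 3.22, group means of at most 1.68 CPM), LTP2 (2.68) and LTP6 (2.06) had ratios above 2. LTP8, with 199.9 CPM in Col 0 NB and 202.1 CPM in *gnom184* NB, had a ratio of ratios of 0.934, and LTP1 had 0.78. LTP9, LTP12, LTP13, LTP14 and LTP15 were listed at 0 in the 4 groups.

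PHI-1 moved in opposite directions in the 2 genotypes' group means. It had 7.96 to 16.6 CPM (median 11.8) in Col 0 NB and 4.29 to 5.9 CPM (median 4.85) in Col 0 RMF27, without overlap. In *gnom184* it had 6.12 to 10.6 CPM (median 8.89) with NB and 8.66 to 19.8 CPM (median 16.4) with RMF27, with overlap. The ratio to NB was 0.442 in Col 0 and 1.78 in *gnom184*.

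LHB1B1, AT2G10940 and TGG1 were selected through 1 library. In *gnom184* RMF27 replicate 4 they had 145, 118 and 269 CPM, and the other 5 libraries of the group had at most 3.47, 0.68 and 8.55 CPM. Without that library their ratios of ratios were 1.17, 0.179 and 0.34. Its leaf marker sum was 2157 CPM against 144 to 563 CPM in the other 5, and the part of leaf RNA in these levels was not tested. *gnom184* NB replicates 2 and 4, with leaf sums of 1045 and 903 CPM, had 62.3 and 41.5 CPM of TGG1, and the other 4 had at most 0.338 CPM. AT1G23130 had 24.4 CPM in *gnom184* RMF27 replicate 1 and 7.77 CPM in replicate 4, and at most 0.476 CPM in the other 4.

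Over the 198 libraries that did not choose the genes, log2 levels went with the log2 leaf marker sum at Pearson's r of 0.686 for LHB1B1, 0.713 for AT2G10940, 0.699 for TGG1 and 0.675 for AT1G23130, and at -0.483 to -0.248 for the 3 LTPs and 2 lipases. Spearman's rho for the first 4 was 0.504, 0.422, 0.418 and 0.323, and for the lipid genes it ran from -0.432 for AT5G01870 to -0.0275 for LTP3. Over the 193 of these libraries that were not high in leaf markers, Pearson's r was 0.438 to 0.519 for the first 4 and -0.475 to -0.272 for the lipid genes. These libraries share genotypes and strains, and LHB1B1 is itself a photosynthesis gene.

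**Figure D2:**
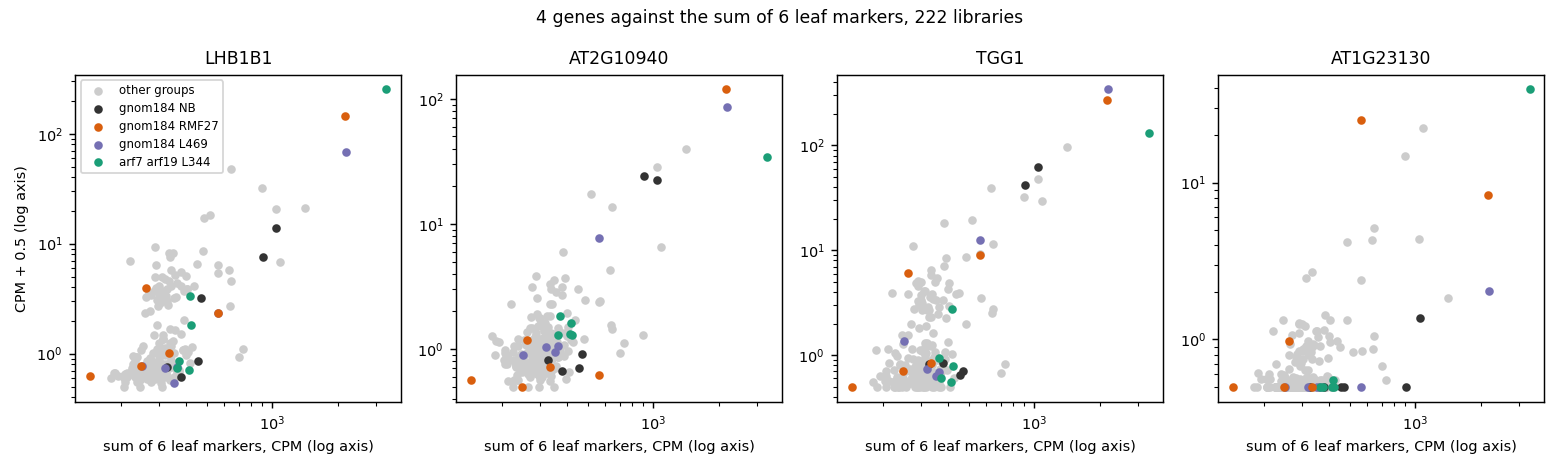
CPM plus 0.5 of 4 genes against the summed CPM of 6 leaf markers in 222 libraries, both on log axes; each point is a library. The *gnom184* RMF27 library at 2157 CPM of leaf markers had 145 CPM of LHB1B1 and 269 CPM of TGG1.

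The ribosomal RNA gene AT2G01020 was selected through Col 0 NB, where replicate 4 had 2167 CPM and replicate 5 had 151 CPM against 7.21 to 29.3 CPM in the other 4. In *gnom184* it had 14.3 to 41.4 CPM with NB and 7.38 to 27.9 CPM with RMF27, with overlap. LpxC3 was listed at 0 in 162 of the 222 libraries, and in the 4 groups its 5 values above 0 were 15.8 to 19.8 CPM. Of the 101-base windows in its exons, 99.7% occur in LpxC4 and 100% in LpxC5, so its reads can rarely be told from theirs and its values are uncertain. The 4 LpxC copies together had medians of 53.1, 54.4, 46.7 and 59.3 CPM in Col 0 NB, Col 0 RMF27, *gnom184* NB and *gnom184* RMF27.

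The 2 non-coding RNAs overlap genes on the other strand, and since a strand setting is not stated their reads cannot be told from those of the partner. AT1G06002 shares 1580 bases with the glycosyltransferase gene AT1G06000. It had 2.67 to 30 CPM (median 9.73) in Col 0 NB, 0 to 26.1 CPM (median 4.44) in Col 0 RMF27, 0 to 4.46 CPM (median 0.994) in *gnom184* NB and 2.24 to 17.8 CPM (median 6.32) in *gnom184* RMF27, so all 4 groups overlap, and its partner had a ratio of ratios of 0.992. AT3G03475 lies within MTO3, a gene of S-adenosylmethionine synthesis, over all its 891 bases. It had 0 to 0.169 CPM in *gnom184* NB, 0.195 to 19.2 CPM in Col 0 NB, 6.2 to 52.1 CPM in Col 0 RMF27 and 0.0594 to 26.4 CPM in *gnom184* RMF27. The next lowest of the 37 group means was 4.54 CPM, in *gnom184* L339. MTO3 had a ratio of ratios of 1.25.

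How far the selection rested on single libraries differed between the genes. With each of the 24 libraries left out in turn, 6 genes were selected every time: ABCG31, LTP3, AT2G19970, AT3G16370, AT5G01870 and AT1G06002. The other 10 were lost without at least 1 library, PHI-1 without any of 11. The ratio of ratios ranged from 5.15 to 5.96 for ABCG31, from 4.24 to 6.02 for LTP3 and from 4.39 to 5.99 for AT2G19970. In each number range alone, 5 genes reached a ratio of 4 in both: ABCG31 (5.59 in the low and 5.61 in the high range), LTP3 (6.08 and 4.6), AT2G19970 (4.9 and 5.32), AT1G06002 (5.42 and 8.05) and AT1G23130 (8.9 and 9.61). For AT1G23130 each range rests on 1 *gnom184* RMF27 library, replicate 4 (7.77 CPM) in the low and replicate 1 (24.4 CPM) in the high range. The rest of that group had at most 0.476 CPM. Both ranges are made of the libraries that chose the genes. The other lipid genes passed in the low range, with 8.04 for LTP5, 6.63 for AT3G16370, 6.16 for AT1G29660 and 5.56 for AT5G01870, and had 2.63, 3.81, 3.05 and 3.9 in the high range. *gnom184* NB replicate 2, whose leaf sum is raised, had 21.1 CPM of LTP5 and 3.97 CPM of AT1G29660, and the other 5 libraries had at most 6.88 and 1.09 CPM. Without it the ratios of ratios of the 5 lipid genes were 5.58 to 6.5, and without both *gnom184* NB replicate 2 and *gnom184* RMF27 replicate 4 they were 5.35 to 6.6, with 5.77 for ABCG31 and 5.18 for AT2G19970.

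**Figure D3:**
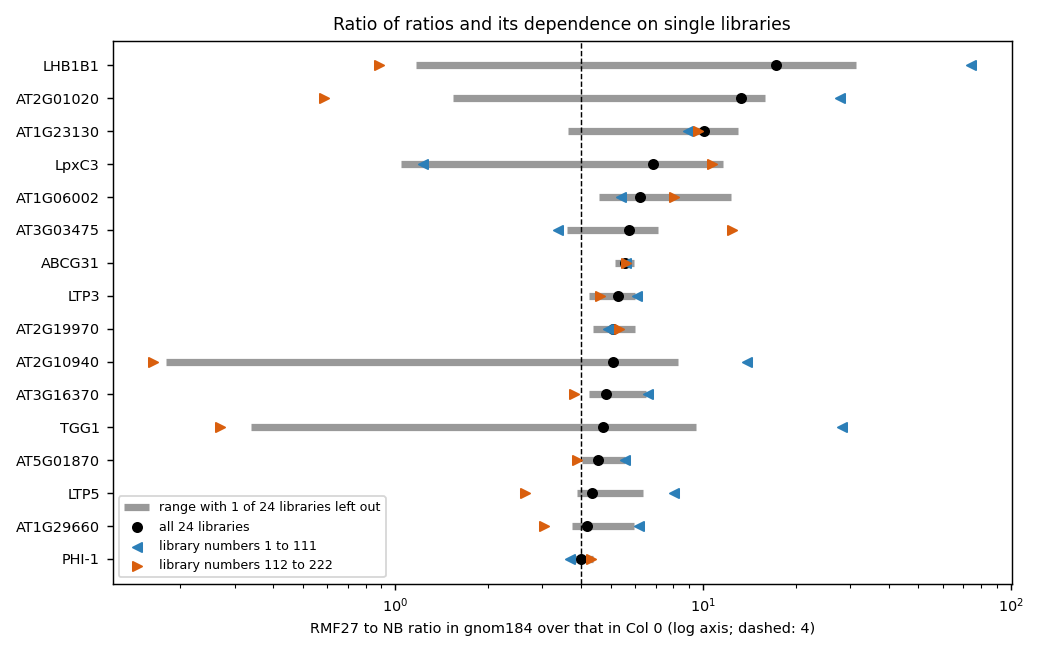
Ratio of ratios of each of the 16 genes on a log axis, from all 24 libraries, with 1 library left out (range), and from each library number range alone. ABCG31 stays between 5.15 and 5.96, and LHB1B1, AT2G01020, AT2G10940 and TGG1 fall below 1 in the high number range.

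Just inside the threshold lay TGG1 (4.73), AT5G01870 (4.56), LTP5 (4.34), AT1G29660 (4.18) and PHI-1 (4.02). Just outside lay PGAZAT, a polygalacturonase that loosens pectin (3.94), AT4G15630 (3.93), AT3G50640 (3.91), AT2G08665 (3.84) and NCED4, a carotenoid cleavage enzyme (3.82). PGAZAT had means of 2.25 CPM in Col 0 NB, 128 CPM in Col 0 RMF27, 1.02 CPM in *gnom184* NB and 280 CPM in *gnom184* RMF27.

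Whether the genes differ between the genotypes with other strains was tested in libraries that did not choose them, *gnom184* against Col 0 with L196, L339 and L469. These comparisons set levels with the same strain side by side and do not measure a response to it. All 37 groups entered 1 edgeR model with quasi-likelihood tests, and a gene was called at a Benjamini-Hochberg adjusted p under 0.05 over the 21635 genes that passed the filter on low counts, as all 16 did. Changes are log2 fold changes with approximate standard errors (SE). Each SE is the absolute change divided by the square root of the test's F statistic, not an error estimated by the model.

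With L196, 3 of the 16 genes were higher in *gnom184* (11.5% of all genes tested were) and 0 were lower (13.5% of all genes; edgeR gave 2 at an unadjusted p under 0.05 and DESeq2 called 0). LTP3 had 6.07, 40.3 and 48.6 CPM as lowest, median and highest in *gnom184* and 12.7, 16.6 and 22.1 CPM in Col 0, a difference of 1.03 (SE 0.24, edgeR adjusted p = 0.000334), and 5 of the 6 *gnom184* libraries lay above all of Col 0. AT2G19970 was higher by 1.03 (SE 0.30, edgeR adjusted p = 0.00584), with 34.1 to 432 CPM against 62.1 to 158 CPM, and ABCG31 by 1.29 (SE 0.44, edgeR adjusted p = 0.0197), with 0.11 to 2.44 CPM against 0.204 to 0.813 CPM. Both overlap, and neither was called within a number range (ABCG31 edgeR adjusted p = 0.0584 and 0.369, AT2G19970 0.052 and 0.0712). Without the 2 libraries whose titles leave their number open, 1 of which is *gnom184* L196 replicate 6, only LTP3 was called, with edgeR adjusted p = 0.0702 for AT2G19970 and 0.0902 for ABCG31. With only these 2 groups in the fit 0 were called (edgeR gave 2 at an unadjusted p under 0.05).

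With L339, 3 genes were higher in *gnom184* (19.5% of all genes) and 3 lower (19.5%). PHI-1 had 10.6 to 19.3 CPM in *gnom184* and 4.59 to 7.42 CPM in Col 0, a difference of 1.37 (SE 0.19, edgeR adjusted p = 1.52e-09) without overlap. LTP3 had 17.1 to 23.6 CPM against 8.11 to 10.2 CPM, a difference of 1.14 (SE 0.25, edgeR adjusted p = 8.77e-05), also without overlap. ABCG31 was higher by 1.22 (SE 0.41, edgeR adjusted p = 0.0119), with 0.199 to 2.27 CPM against 0.315 to 0.642 CPM. The 3 *gnom184* libraries of the high number range had 1.62, 1.86 and 2.27 CPM and the 3 of the low range 0.199, 0.287 and 0.381 CPM, while both ranges of Col 0 lay between 0.315 and 0.642 CPM. Within the high range ABCG31 differed by 1.86 (edgeR adjusted p = 0.00111) and within the low range by -0.71 (edgeR adjusted p = 0.497). AT5G01870 was lower, with 41 to 56.8 CPM against 61.6 to 78.8 CPM and a difference of -0.62 (SE 0.19, edgeR adjusted p = 0.005), without overlap. LTP5 (-0.65, edgeR adjusted p = 0.0317, DESeq2 adjusted p = 0.0538) and AT1G29660 (-0.89, edgeR adjusted p = 0.0142) were lower too. Within the low and the high number range alone, AT5G01870 (edgeR adjusted p = 0.0762 and 0.0971) and LTP5 (0.125 and 0.14) were not called, and AT1G29660 was called in the high range only (0.21 and 0.00726).

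With L469, 4 genes were higher in *gnom184* (16.8% of all genes) and 4 lower (16.2%). The lower ones were 4 of the 5 lipid genes. AT5G01870 had 13.5 to 37.4 CPM against 73 to 93.9 CPM (-1.92, SE 0.20, edgeR adjusted p = 9.91e-16), and LTP5 had 6.67 to 17.2 CPM against 28.4 to 38 CPM (-1.73, SE 0.27, edgeR adjusted p = 2.8e-08). AT1G29660 differed by -2.02 (edgeR adjusted p = 1.12e-07) and AT3G16370 by -0.92 (edgeR adjusted p = 0.00141). In all 4 every *gnom184* library lay below every Col 0 library, and how many of all genes did so was not counted. Some other markers differed in the same way with L469. The 5 endodermis markers summed to 190.7 to 234 CPM in *gnom184* and 334 to 374 CPM in Col 0. The 6 root hair markers summed to 185 to 206 CPM and 260.2 to 351 CPM. The 4 phloem markers went the other way, with 193.2 to 228.6 CPM in *gnom184* and 127.2 to 162 CPM in Col 0. Sums of the xylem, dividing cell and lateral root primordia markers overlapped. The part of any of these markers in the differences of the lipid genes was not tested. TGG1, LHB1B1 and AT2G10940 had 341, 67.6 and 85.2 CPM in *gnom184* L469 replicate 6, the library with a leaf sum of 2186 CPM, and at most 12, 1.85 and 7.24 CPM in the other 5. Without the libraries high in leaf markers they were no longer called (edgeR adjusted p = 0.0569, 0.857 and 0.164), which left 1 higher gene, PHI-1 (0.56, SE 0.21, edgeR adjusted p = 0.0264 with all libraries), and 4 lower. Without those libraries the share of all genes called was not taken. Of a list of 20 photosynthesis genes, 20 were called higher in this comparison and 15 without those libraries.

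**Figure D4:**
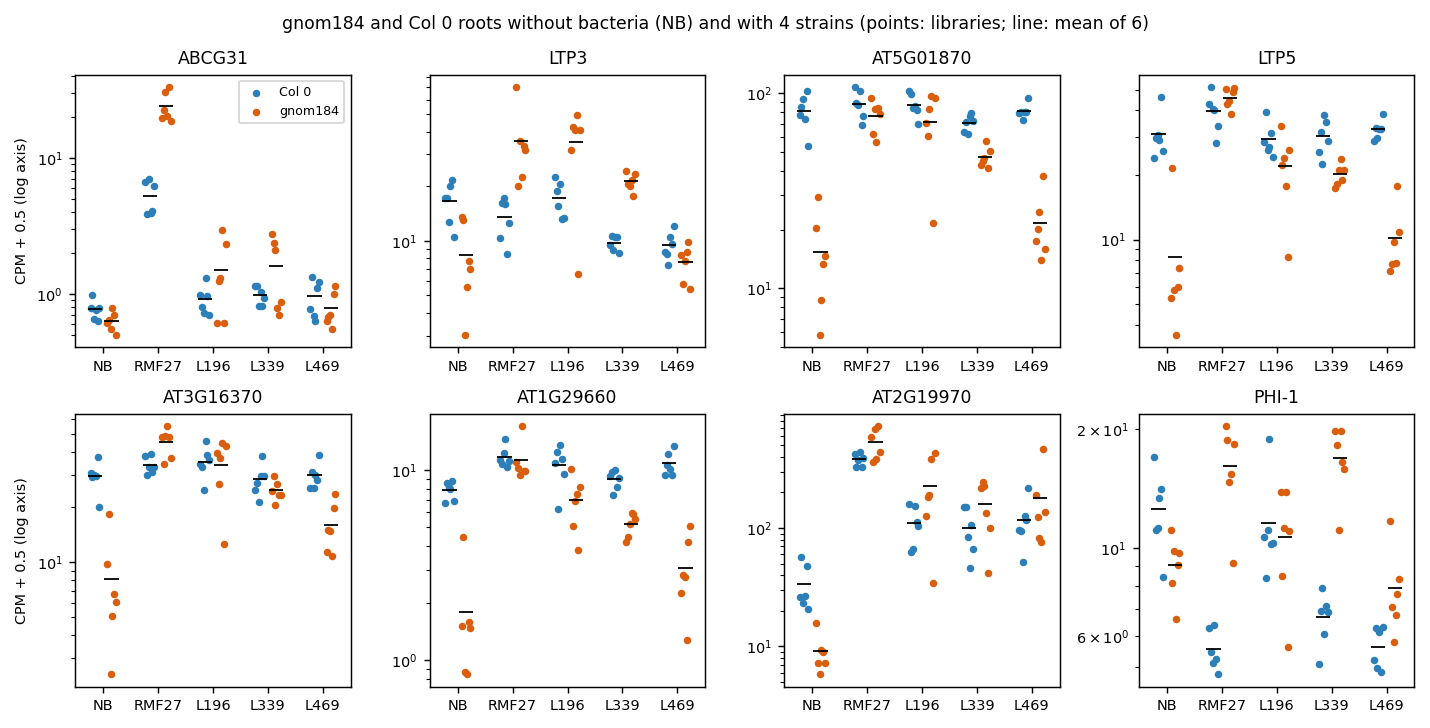
CPM plus 0.5 on a log axis of selected genes in Col 0 and *gnom184* with NB and 4 strains, 6 libraries each; points are libraries and lines are means. LTP3 in *gnom184* lies above Col 0 with RMF27 and L339, and AT5G01870, LTP5 and AT1G29660 lie below Col 0 with L469.

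The *gnom184* to Col 0 ratio of group means, with 0.5 CPM added, was 0.267 for LTP5 with NB, 0.311 with L469, 0.66 with L339, 0.748 with L196 and 1.16 with RMF27. For AT5G01870 it was 0.189, 0.267, 0.667, 0.816 and 0.862 in the same order of treatments, and for LTP3 0.501, 0.808, 2.18, 2.03 and 2.64. AT2G19970 differed, with 0.271, 1.52, 1.59, 2.06 and 1.39 in that order, so its ratio was highest with L196 and not with RMF27. The differences between strains were not tested.

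Summed levels of several cell type markers differed between these groups. The 5 markers of lateral root primordia summed to 17 to 21.2 CPM in *gnom184* NB, 28.6 to 47.6 CPM with L469, 29.6 to 39 CPM with L339, 30.9 to 57.6 CPM with L196 and 52.6 to 74.9 CPM with RMF27, and to 21 to 40.7 CPM and 34.2 to 56.6 CPM in Col 0 with NB and RMF27. The 4 markers of dividing cells summed to 69.4 to 97.2 CPM in *gnom184* NB and 93.8 to 123 CPM in *gnom184* RMF27, and to 66.7 to 85.9 CPM and 62.8 to 83.2 CPM in Col 0. In *gnom184* the NB and RMF27 sums overlap, and the median sum was 77.7 CPM with NB, 77.7 CPM with L469, 98.7 CPM with L339, 100.3 CPM with L196 and 118 CPM with RMF27. With L339 and L196 every *gnom184* library lay above every Col 0 library in these markers, and with L469 the genotypes overlap. The 6 root hair markers found had median sums of 82.1 CPM in *gnom184* NB, 681 CPM in *gnom184* RMF27, 150.4 CPM in Col 0 NB and 766 CPM in Col 0 RMF27. The 6 xylem markers went from 337 to 464 CPM with NB to 191 to 286 CPM with RMF27 in *gnom184* and from 334 to 449 CPM to 255 to 315 CPM in Col 0. The 4 phloem markers went from 206 to 261 CPM to 142 to 183 CPM in *gnom184* and from 149.7 to 167 CPM to 100.5 to 131 CPM in Col 0. The 5 endodermis markers had median sums of 180.3 and 272 CPM in *gnom184* NB and RMF27 and 327 and 380.4 CPM in Col 0, and with L196, L339 and L469 every *gnom184* library lay below every Col 0 library in them. None of these markers was at 0 in these groups, and their part in the levels of the selected genes was not tested.

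In the other mutants a strain was compared with NB of the same genotype. For *lbd16-1* and *nph4-1* it was the strain with most called genes in earlier work on these data, and for *arf7 arf19* the only strain. Their other strains were not tested here. In *lbd16-1* with RMF8, 1 of the 16 genes rose (15% of all genes) and 2 fell (12.2%). AT2G19970 rose from 22.8 to 29 CPM in NB to 41.7 to 94.7 CPM, a change of 1.3 (SE 0.32, edgeR adjusted p = 0.00059) without overlap. LTP3 went from 13.9 to 23.7 CPM to 5.07 to 13.8 CPM, a change of -0.87 (SE 0.25, edgeR adjusted p = 0.00352), and PHI-1 changed by -0.60 (SE 0.20, edgeR adjusted p = 0.0172). In *nph4-1* with L344, 0 rose (11.8% of all genes; edgeR gave 1 at an unadjusted p under 0.05 and DESeq2 called 1) and 1 fell (11.2%), PHI-1, from 8.67 to 11.1 CPM to 4.47 to 5.54 CPM, a change of -0.96 (SE 0.20, edgeR adjusted p = 6.27e-05). AT2G19970 was low in both groups, with 3.19 to 5.05 CPM and 5.11 to 8.63 CPM.

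In *arf7 arf19* NB the 5 lipid genes had their lowest NB levels, with 0.721 to 8.59 CPM of AT5G01870, 0.733 to 1.44 CPM of LTP5, 0.665 to 2.83 CPM of AT3G16370, 0.158 to 0.544 CPM of AT1G29660 and 0.166 to 8.65 CPM of LTP3. All of these lie below the lowest Col 0 NB library. With L344, 7 of the 16 genes rose (19.6% of all genes) and 4 fell (14.8%). Those that rose were LTP5, AT1G29660, AT3G16370, LHB1B1, TGG1, AT2G10940 and AT1G23130, and replicate 5 held 31.2, 20.8, 21.1, 252, 131, 33.5 and 38.7 CPM of them. The other 5 libraries had at most 1.73 CPM of LTP5, 0.429 CPM of AT1G29660 and 0.978 CPM of AT3G16370, and leaf sums of 363 to 420 CPM against 3363 CPM. Without the libraries high in leaf markers 0 rose (edgeR gave 0 at an unadjusted p under 0.05; DESeq2 was not run without them) and 5 fell: LTP3 by 2.74 (edgeR adjusted p = 5.11e-05), PHI-1 by 1.52 (edgeR adjusted p = 1.3e-11), AT5G01870 by 1.14 (edgeR adjusted p = 0.00945), AT3G16370 by 0.97 (edgeR adjusted p = 0.0385) and AT2G01020 by 1.19 (edgeR adjusted p = 0.0442). The share of all genes called was not taken in this fit. The call of AT2G01020 rested on NB replicate 4, with 411.6 CPM against 9.09 to 18.4 CPM in the other 5 NB libraries and 21.9 to 74.8 CPM with L344. Without that replicate AT2G01020 was higher with L344, by 1.2 (SE 0.43, edgeR adjusted p = 0.022). With only these 2 groups in the fit, 0 of the 10 genes that passed its filter were called (edgeR gave 5 at an unadjusted p under 0.05).

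**Figure D5:**
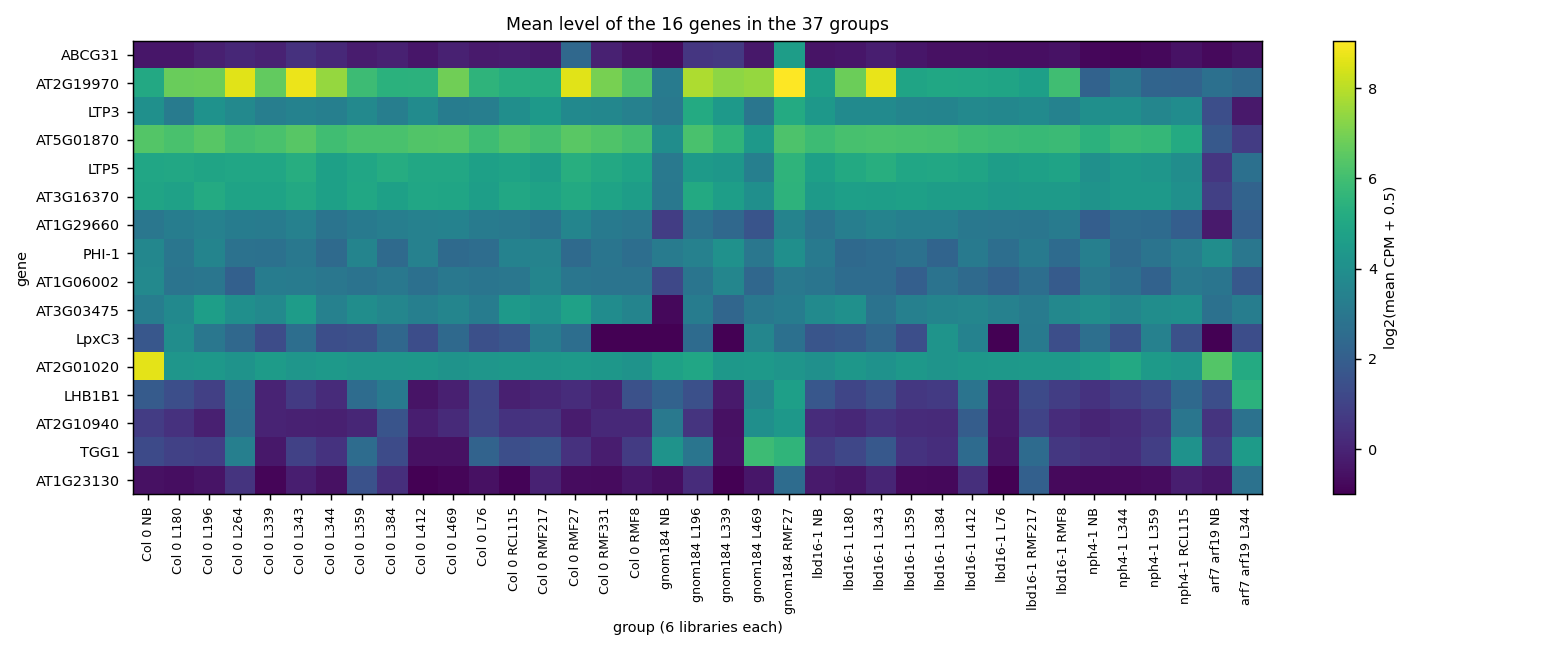
Group means as log2 of CPM plus 0.5 for the 16 genes (rows) in the 37 groups of 6 libraries (columns). ABCG31 is high only with RMF27, in *gnom184* (23.7 CPM) and Col 0 (4.78 CPM), and LTP5, AT3G16370 and AT1G29660 are lowest in *arf7 arf19* NB.

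Over all groups the genes fell into a few patterns. In Col 0 the lipid genes had, over the 17 treatments, group means of 60.3 to 88.3 CPM for AT5G01870, 23.4 to 39.1 CPM for LTP5, 6.56 to 11.3 CPM for AT1G29660 and 8.57 to 21.3 CPM for LTP3. AT2G19970 ran from 33.1 CPM with NB to 431 CPM with L343 in Col 0, and it reached 421 CPM with L343 in *lbd16-1* but at most 7.18 CPM in the 4 groups of *nph4-1*. Over the 33 groups that did not choose the genes, the 10 pairwise correlations of the 5 lipid genes ran from 0.443 to 0.96 (median 0.851), and over the 31 groups without *arf7 arf19* from -0.145 to 0.958 (median 0.724). Without the libraries high in leaf markers they ran from 0.701 to 0.991 (median 0.949) and from -0.151 to 0.965 (median 0.763). AT2G10940, with a lipid transfer domain, is not among these 5, and its correlations with them over the 33 groups ran from -0.441 to -0.315. Those of AT1G23130, of the lipid transport family, ran from -0.441 to -0.0813. These groups share genotypes and strains.

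The cutin and wax genes served as the neighbouring pathway, 11 tested of 14 listed. With L196, 5 were lower in *gnom184* (13.5% of all genes tested were), and CER1, of alkane synthesis, was nearest to a call in the other direction (0.48, edgeR adjusted p = 0.0777). With L339, 1 was higher and 3 lower (19.5% and 19.5% of all genes), and with L469 1 was higher, which was not called without the libraries high in leaf markers, and 4 lower (16.8% and 16.2%). Their median differences were -0.16, -0.10 and -0.16, beside medians of -0.00318, 0.00993 and -0.00878 over all genes. CYP86A8, a fatty acid hydroxylase, was lower with all 3 strains, by -0.46 (edgeR adjusted p = 9.47e-06), -0.43 and -0.43. In the strain comparisons 1 rose and 5 fell in *lbd16-1* with RMF8 (15% and 12.2% of all genes), 1 and 5 in *nph4-1* with L344 (11.8% and 11.2%) and 1 and 4 in *arf7 arf19* with L344 (19.6% and 14.8%), and GPAT4 and LACS2, both of cutin synthesis, fell in all 3. Lower levels in *gnom184* were not particular to this list. Of 16 Casparian strip and suberin genes, 13 were lower and 1 higher with L196, 10 and 0 with L339, and 10 and 0 with L469.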

How the data were processed

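The deposited values are estimated counts per gene, which the authors made with fastp 0.20.1 and Salmon 1.6.0 on reads of root RNA and summed to genes. The strand setting and the scaling of the counts are not stated. The estimated counts entered the tests as deposited, without rounding. All 16 genes passed edgeR's filter on low counts, as 21635 of 32311 genes did. The main test was edgeR 4.0.16 (TMM scaling, quasi-likelihood, robust, 1 coefficient for each of 37 groups) in R 4.3.3, with Benjamini-Hochberg adjustment within each comparison. DESeq2 1.42.0, other scalings, filters and sets of libraries were alternatives. The fit and the selection were also run on simulated data that held no outlying libraries. Those runs therefore do not cover genes selected through a single library. P-values rest on a spread between libraries within groups that was estimated over all 37 groups, each of 6 libraries from 2 repeats.

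The genes and lists were chosen with earlier results of these data known. Named are the 10 genes with the highest ratios or levels, the 5 on either side of the threshold, the listed genes and up to 3 called genes per comparison and direction, which together take in all 16, and LTP family and overlapping genes. Of the gene IDs, 99.2% matched the RefSeq annotation of TAIR10.1, from which positions and sequences were read.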

Additional observations from a re-analysis of the deposited data

Results flagged for a closer look

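Among 100 combinations of a gene and a group of 6 libraries with a highest level of at least 5 CPM, over 8 groups (Col 0 NB and RMF27, *gnom184* NB, RMF27, L196, L339 and L469, and *arf7 arf19* L344), 32 held a single library far from the other 5. Chance flags about 1 in 20 where values are normal and independent. That rate is no reference for this count, since 13 of the 32 lie in the 4 groups whose values chose the genes and several repeat 1 library over many genes. AT2G01020 in *arf7 arf19* NB replicate 4 (411.6 CPM) lies outside these groups.

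In *arf7 arf19* L344, replicate 5 was far above the others in AT1G23130 (38.7 CPM), AT1G29660 (20.8 CPM), AT2G10940 (33.5 CPM), AT3G16370 (21.1 CPM), LHB1B1 (252 CPM), LTP5 (31.2 CPM), PHI-1 (19 CPM) and TGG1 (131 CPM), and it has the highest leaf marker sum of the 222 libraries. In *gnom184* RMF27, replicate 4 stood apart in AT2G10940 (118 CPM), LHB1B1 (145 CPM), TGG1 (269 CPM) and AT1G29660 (16.6 CPM), and replicate 1 in AT1G23130 (24.4 CPM) and LTP3 (69.9 CPM). In *gnom184* L469, replicate 6 stood apart in AT2G10940 (85.2 CPM), LHB1B1 (67.6 CPM) and TGG1 (341 CPM), and replicate 5 in AT2G01020 (30.1 CPM), AT2G19970 (465 CPM), LTP5 (17.2 CPM) and, as the lowest, LpxC3 (0 CPM).

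Single libraries also stood apart in *gnom184* NB for AT2G19970 (15.4 CPM) and LTP5 (21.1 CPM), in *gnom184* L196 for AT2G01020 (72.4 CPM) and TGG1 (39.1 CPM), and in *arf7 arf19* L344 for AT2G01020 (74.8 CPM) and LpxC3 (12.4 CPM). In Col 0 they did so with NB for AT2G01020 (2167 CPM), LTP5 (45.8 CPM) and LpxC3 (16.7 CPM), and with RMF27 for AT1G06002 (26.1 CPM) and AT2G01020 (27.9 CPM).

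PHI-1 drew attention because its RMF27 libraries lay below the NB mean in Col 0 and above it in *gnom184*, with a ratio of ratios of 4.02. This difference was not tested, since these libraries chose the gene.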

How the results depend on the processing

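The number of selected genes, 16, was 29 with 0.1 CPM and 8 with 2 CPM added, 63 at a ratio of 3, 61 in library numbers 1 to 111, and 13 to 41 with 1 library left out. It was 28 without the libraries high in leaf markers, an alternative chosen after seeing the data, as were the other results without those libraries, without *gnom184* L196 replicate 5, without *arf7 arf19* NB replicate 4 or within 1 number range. Of the called genes, L196 gave 0 with only the 2 groups in the fit and 1 without the libraries with an open title. L339 gave 3 at an adjusted p of 0.01 and 3 at a log2 change of at least 1. L469 gave 5 with only the 2 groups and 5 without the libraries high in leaf markers. *lbd16-1* gave 1 and *nph4-1* 0 at a log2 change of at least 1, and *nph4-1* gave 3 with only the 2 groups and 2 with DESeq2. *arf7 arf19* gave 0 with only the 2 groups and 5 without the libraries high in leaf markers, where AT1G23130 (-4.00), AT1G29660 (-0.48), LHB1B1 (-1.08), AT3G16370 (-0.97) and TGG1 (-1.09) turned in direction, with 1 library fewer. Fits of 2 groups test fewer genes and share no spread with the other groups; otherwise the cause was not tested. Within library numbers 1 to 111, L339 gave 2 and *lbd16-1* 1, and ABCG31 with L339 turned to -0.71. AT3G16370 and PHI-1 with L469, LTP3 and PHI-1 in *lbd16-1* and PHI-1 in *arf7 arf19* were not called there either. Within 112 to 222, L196 gave 1, L469 5, *nph4-1* 3 and *arf7 arf19* 2, AT2G10940 with L469 turned to -0.31, and in *arf7 arf19* AT1G23130 (-5.07), AT1G29660 (-0.85), AT2G01020 (1.42), AT2G10940 (-0.074), LHB1B1 (-2.90), AT3G16370 (-0.77) and TGG1 (-2.62) turned, with 3 libraries a group. AT2G01020 also turned, to 1.2, without *arf7 arf19* NB replicate 4. With the number range as a covariate the same genes were called in all 6 comparisons. The other 80 of 104 counts stayed within 1.5 times, which compares the sizes of the lists and not their genes. Selection on the median of the 6 libraries gave 19 genes, and 10 of them were among the 16. Library numbers 112 to 222 gave 13 selected genes, and 8 of them were among the 16. Shares of all genes called were taken in the main fit only. No paired analysis was possible because the replicate numbers follow the order of the accessions and pair no libraries. Levels under about 0.3 CPM rest on few counts, since 3 counts are 0.293 CPM in the shallowest library.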
